A study of Saccharomyces cerevisiae with 60 samples.

Results

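The mitochondrial ribosome of budding yeast is built from RNAs made inside the organelle and from proteins that are encoded in the nucleus, translated in the cytosol and imported. It makes a handful of very hydrophobic subunits of the respiratory chain and of the ATP synthase, so its protein genes matter most when cells respire. In glucose medium these nuclear transcripts are known targets of Puf3, a Pumilio-family RNA-binding protein that recognises a short motif in the 3′ untranslated region and promotes their decay.

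The genes described here are the 56 whose yeast symbol is MRP, MRPL or MRPS followed by a number, out of 7126 features counted in each library. The reference annotation names 55 of them as mitochondrial ribosomal proteins, 38 of the large subunit and 17 of the small subunit. The exception is MRP8, whose annotation says that it was once thought to be such a protein from its sequence. Of the 55, 37 have a counterpart in the bacterial ribosome and 18 are specific to mitochondria. They lie on 12 chromosomes, and their counted length ran from 213 to 1185 bp with a median of 657 bp. All 56 passed the filter on low counts, which kept 6070 features.

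The libraries measured poly(A) RNA of W303 yeast in which Hsf1, the heat shock transcription factor, carried an anchor-away tag in every strain. Anchor-away removes a tagged protein from the nucleus when rapamycin is added. Cells growing in YPD-A, a rich glucose medium, received DMSO or rapamycin in DMSO for 45 min at 25 °C and were then collected or moved to 37 °C or 42 °C for 10 or 30 min. There were 4 strain states with 3 libraries in each of 5 conditions, 60 in all: wild type (DMSO), Hsf1-depleted (rapamycin), MSN-deleted (msn2Δ/msn4Δ with DMSO, lacking the general stress factors Msn2 and Msn4) and double loss (msn2Δ/msn4Δ with rapamycin). The rapamycin states differ from the others in the drug as well as in nuclear Hsf1, and no labelled group received rapamycin without the tag.

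Libraries held 3848210 to 10142858 counted reads, with a median of 5938357. The 56 genes together took 0.120% to 0.605% of the reads of a library. A count of 3, the limit that a count of 0 allows, was worth 0.296 to 0.78 CPM (counts scaled to the library size), and intervals of this kind cover counting error only. The labels do not state that replicate libraries came from different cultures, and every p-value here therefore reflects variation among these libraries, part of which may be technical. In bulk RNA, fewer cells and less RNA per cell cannot be told apart, and CPM is relative to the rest of the library. The deposited tables name 6 library sets of 10 libraries each. Sets 1 to 3 held the MSN-deleted and double-loss states, and sets 4 to 6 the wild-type and Hsf1-depleted states. Each set held 1 library of each group of its states, and the tests below had no term for set unless stated. The members moved together between libraries of 1 group. In the wild type at 25 °C, 52 of 56 lay above their group mean in replicate 3 but only 5 in replicate 1. This went with library set. In set 6, which held that replicate 3, the number above the group mean was 31 to 54 in every library. It was 31 to 49 in set 1, and 4 to 43 in set 4, which held that replicate 1. By overall distance, 9 of the 60 libraries stood apart from their group.

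The feature that these genes shared most completely was the Puf3 motif. TGTANATA, searched on the sense strand within 200 bases after the stop codon, was found behind all 55 annotated members and not behind MRP8. Of 5993 genes with the same windows, 843 held it, 14.1%. Among other mitoribosomal proteins, named by other symbols, 23 of 24 held it, and it followed all 13 mitochondrial tRNA synthetase genes. In contrast it followed 4 of 38 genes for subunits of oxidative phosphorylation, 6 of 138 for cytosolic ribosomal proteins and 3 of 39 for cytosolic ribosome biogenesis. The first motif began a median of 52 bases after the stop codon, with a range of 8 to 139.

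**Figure D1:**
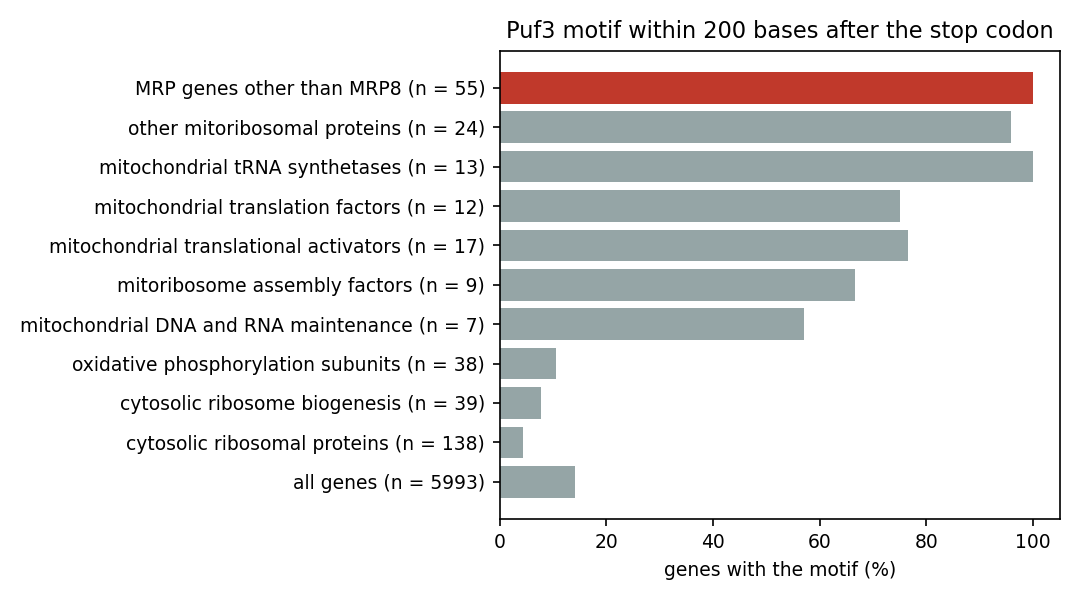
Share of genes, in percent, with TGTANATA within 200 bases after the stop codon, by gene list, with the number of genes in brackets. The bar for the 55 annotated MRP genes reaches the top of the scale, against 14.1% for all genes and 4.3% for cytosolic ribosomal protein genes.

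The stretches below are shown because the 8 genes are those at both ends of the heat responses described later. All 55 annotated members carry the motif, so its presence in these 8 says nothing about the direction of response. The first 4 had the lowest mean log2 fold change over the 16 heat responses and the last 4 the highest, MRP8 aside. Each line is the strand of the transcript in the R64 reference of RefSeq, 5′ to 3′, with the motif in capitals.

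MRPL37, chrII:741638-741667, plus strand: tttggtatcctTGTAAATAaatatgtgtgt

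MRPL17, chrXIV:171334-171363, minus strand: cgtcaatcacaTGTAAATAtcattaaatga

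MRPL15, chrXII:760291-760320, plus strand: aaaaatttatcTGTAAATAgtgatcgaaat

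MRPL11, chrIV:99267-99296, plus strand: ctattcaatcaTGTACATAcatcatcaaaa

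MRP49, chrXI:133678-133707, minus strand: aagtttgttcaTGTATATAtcaaaaaacat

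MRPL28, chrIV:1386537-1386566, plus strand: ctgtctcctgcTGTAAATAactgatgatca

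MRPL44, chrXIII:720854-720883, minus strand: acaagcaagccTGTAAATAatatatatgca

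MRP10, chrIV:372580-372609, plus strand: agtcatggcctTGTATATAcaaattaaata

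The letters around the core also differed from those of other genes. The form TGTAAATA made up 28 of the 55 first motifs (50.9%), against 241 of 843 over all genes with a motif (28.6%), while TGTATATA made up 17 (30.9%) against 413 (49%). A C stood 2 bases before the motif in 39 of the 55 (70.9%), against 28.8% of all genes with a motif. Of the 8 stretches above, MRPL15 and MRPL28 lack this C and the others carry it. MRPL3 alone had TGTAGATA, and 11 members had 2 motifs in the window. A motif match describes letters and is not evidence of binding.

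Upstream, the members had little in common among the motifs searched in the 300 bases before the start codon on both strands. AGGGG, the stress response element bound by Msn2 and Msn4, was found in 7 of 56 (12.5%) against 22.2% of all genes. A strict form of the heat shock element bound by Hsf1 was in 0 of 56, against 0.9% of all genes. AATTTT was found in 24 of 56 (42.9%) against 54.1%, whereas all 39 cytosolic ribosome biogenesis genes held it. GCGATGAG, the PAC element of ribosome biogenesis genes, was in 3 of 56 (5.4%) against 4.1%, and in 53.8% of the biogenesis genes. GCGATGAG and AGGGG can share letters as searched, and AATTTT followed AGGGG directly in MRP21. Among the 7 with AGGGG were MRP8, which rose most under heat, and MRPL37, which fell most. The stretches are printed to show that the same 5 letters, in capitals and as CCCCT on the opposite strand, stood before both.

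MRP8, chrXI:178309-178338, plus strand: gatttcggagaaAGGGGgtggaggaaggag

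MRPL37, chrII:741091-741120, plus strand: attcttcactacCCCCTctatagcaatgtt

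At 25 °C the level of the members, per kilobase of counted length, spanned from 5.77 CPM per kb for MRPL51 (mL43 of the large subunit) to 266 CPM per kb for MRPL19 (uL11m, of the base of the stalk where translation factors bind) in the wild type. The median was 48.2 CPM per kb. The next highest were MRP10 (mS37), MRPL8 (bL17m) and MRP4 (uS2m) at 247, 205 and 196 CPM per kb. In CPM these 4 genes had means of 127 ± 23.6, 71.1 ± 9.82, 147 ± 25.1 and 232 ± 24.3 (SD, n = 3), and scaled to length MRPL19 and MRP10 differed by less than either gene's SD, as did MRPL8 and MRP4. MRP35 (bL35m), MRPL24 (bL28m), MRPS17 (uS17m), MRP2 (uS14m) and MRPL44 (mL53) were also low, at 7.99 to 12.7 CPM per kb. Reads of 5 members may be shared with overlapping genes, on the opposite strand for MRP4, MRPL38, MRPL51 and MRPL9 and on the same strand for MRPL19. Whether counting used strand is not given in the sources used here.

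Without heat no difference between strain states was detected. The MSN-deleted and double-loss libraries came from other library sets than the wild type. In comparisons of those states with the wild type at 25 °C, strain and set cannot be told apart. No member was called (edgeR quasi-likelihood test, adjusted p under 0.05 and log2 fold change of at least 1 in size) in any of 4 comparisons between states at 25 °C, and DESeq2 also called 0. Over all genes 0% rose and 0.198% fell in Hsf1-depleted against wild-type cells. For the MSN-deleted state these shares were 0.0165% and 0.0988%, for the double loss 0.0494% and 0.445%, and for the double loss against the MSN-deleted state 0% and 0.329%. At an unadjusted p under 0.05 there were 4 members for Hsf1 depletion, 0 for the MSN deletion, 1 for the double loss and 0 for the double loss against the MSN-deleted state. The member nearest to a difference was MRPL4 (uL29m, at the exit of the polypeptide tunnel), with a log2 difference of 1.32 ± 0.47 (SE) under Hsf1 depletion and an adjusted p of 0.688 by edgeR. Its CPM was 372, 111 and 234 in the Hsf1-depleted libraries and 69.6, 119 and 97.8 in the wild type. The groups overlapped, and the Hsf1-depleted libraries differed more among themselves than the groups did. Matched by library set, however, the Hsf1-depleted value was the higher in each set. It was 111 against 69.6 CPM in set 4, 372 against 119 in set 5 and 234 against 97.8 in set 6.

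**Figure D2:**
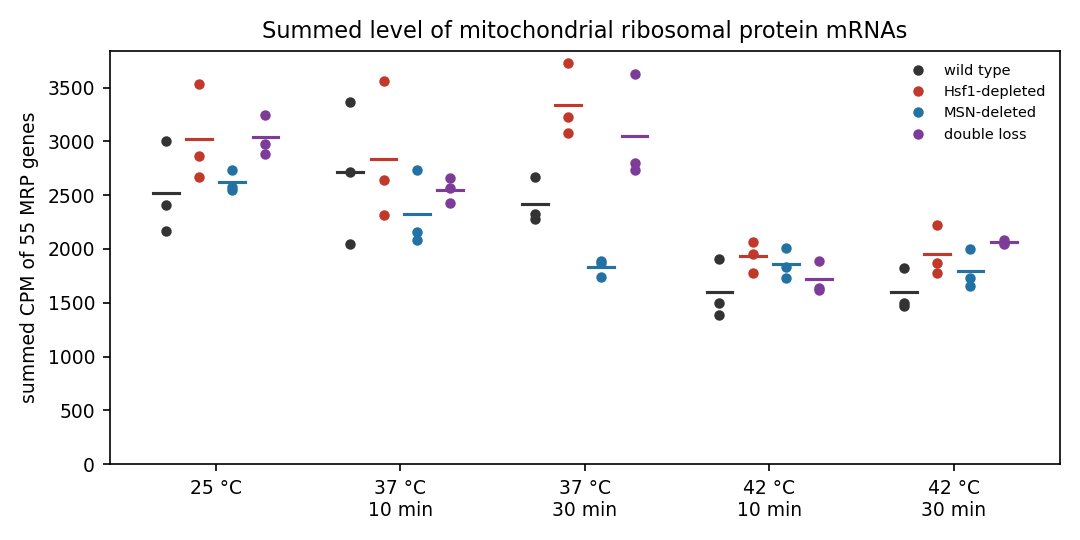
Summed CPM of the 55 annotated MRP genes in each of 60 libraries, by condition on the horizontal axis and strain state by colour; bars are group means. At 42 °C for 30 min all 12 libraries lie between 1470 and 2220 summed CPM, below the 25 °C libraries of their own state. By share of raw reads the Hsf1-depleted and double-loss groups overlapped.

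Heat lowered these transcripts mainly at 42 °C, except in the MSN-deleted state, where the sum was about as low after 30 min at 37 °C. The summed level of the 55 annotated members was 2524 ± 432 CPM (SD, n = 3) in wild-type cells at 25 °C, 2712 ± 658 and 2421 ± 213 at 37 °C for 10 and 30 min, and 1599 ± 275 and 1598 ± 198 at 42 °C. The 25 °C libraries held 2163 to 3003 CPM and the 42 °C libraries 1391 to 1911, so those groups did not overlap. In the Hsf1-depleted state the sum went from 3023 ± 456 at 25 °C to 1931 ± 148 and 1956 ± 234 at 42 °C for 10 and 30 min. In the MSN-deleted state it went from 2621 ± 100 to 1856 ± 145 and 1797 ± 182, and in the double loss from 3037 ± 186 to 1717 ± 151 and 2062 ± 17 (SD, n = 3 throughout). All 12 libraries of each 42 °C time point lay below those of 25 °C in their own state, in CPM after TMM scaling. As a share of raw reads of the 56 genes, which include the rising MRP8 that the sum leaves out, this held in the wild type and the MSN-deleted state only. In the double loss the share was 0.239% to 0.438% at 25 °C and 0.278% to 0.327% at 42 °C for 30 min. In the Hsf1-depleted state it was 0.179% to 0.368% and 0.202% to 0.258%. At 37 °C the sum was also below all 25 °C libraries in the MSN-deleted state after 30 min (1832 ± 82 CPM) and in the double loss after 10 min (2553 ± 121 CPM), while the other 6 groups at 37 °C overlapped theirs.

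At 42 °C for 30 min, 27 of 56 members fell and 2 rose in the wild type, with a median log2 fold change of -1.11. Over all genes tested 29.5% fell and 30.2% rose, with a median of -0.04. The fall thus took in a larger share of members than of all genes, and the rises a smaller one. Under Hsf1 depletion 13 fell and 2 rose (27.2% and 29.8% of all genes), with a median of -0.55. Under MSN deletion 11 fell and 4 rose (23.2% and 26.2%), with a median of -0.57. For the double loss 10 fell and 3 rose (24.6% and 25.5%), with a median of -0.49. In these 3 states the share of members that fell was therefore no larger than that over all genes. The wild-type count was 19 of both directions together without replicate 3 at 25 °C, the library in which most members were high, against 29 with it.

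At 42 °C for 10 min, 16 members fell and 1 rose in the wild type, with a median of -0.76 (18.2% and 23.1% of all genes). The counts were 16 and 1 under Hsf1 depletion (17.2% and 22.6%), 10 and 3 under MSN deletion (13.7% and 19.5%), and 18 and 1 in the double loss (13.6% and 17.1%). The medians were -0.90, -0.45 and -0.82. The called members numbered 10 in the wild type without replicate 3 at 25 °C. They numbered 11 without replicate 3 and 30 without replicate 1 of the Hsf1-depleted cells at 25 °C, and 12 without replicate 2 of the double loss at 25 °C. With scaling to library totals alone, the all-gene median log2 fold change ran from -0.59 to 0.45 over the 16 heat responses. Under it the double loss at 42 °C for 10 min held 3 called members instead of 19, and the wild type 30 instead of 17, while the member median went from -0.49 to -0.10 in the double loss and from -1.11 to -1.69 in the wild type at 42 °C for 30 min.

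**Figure D3:**
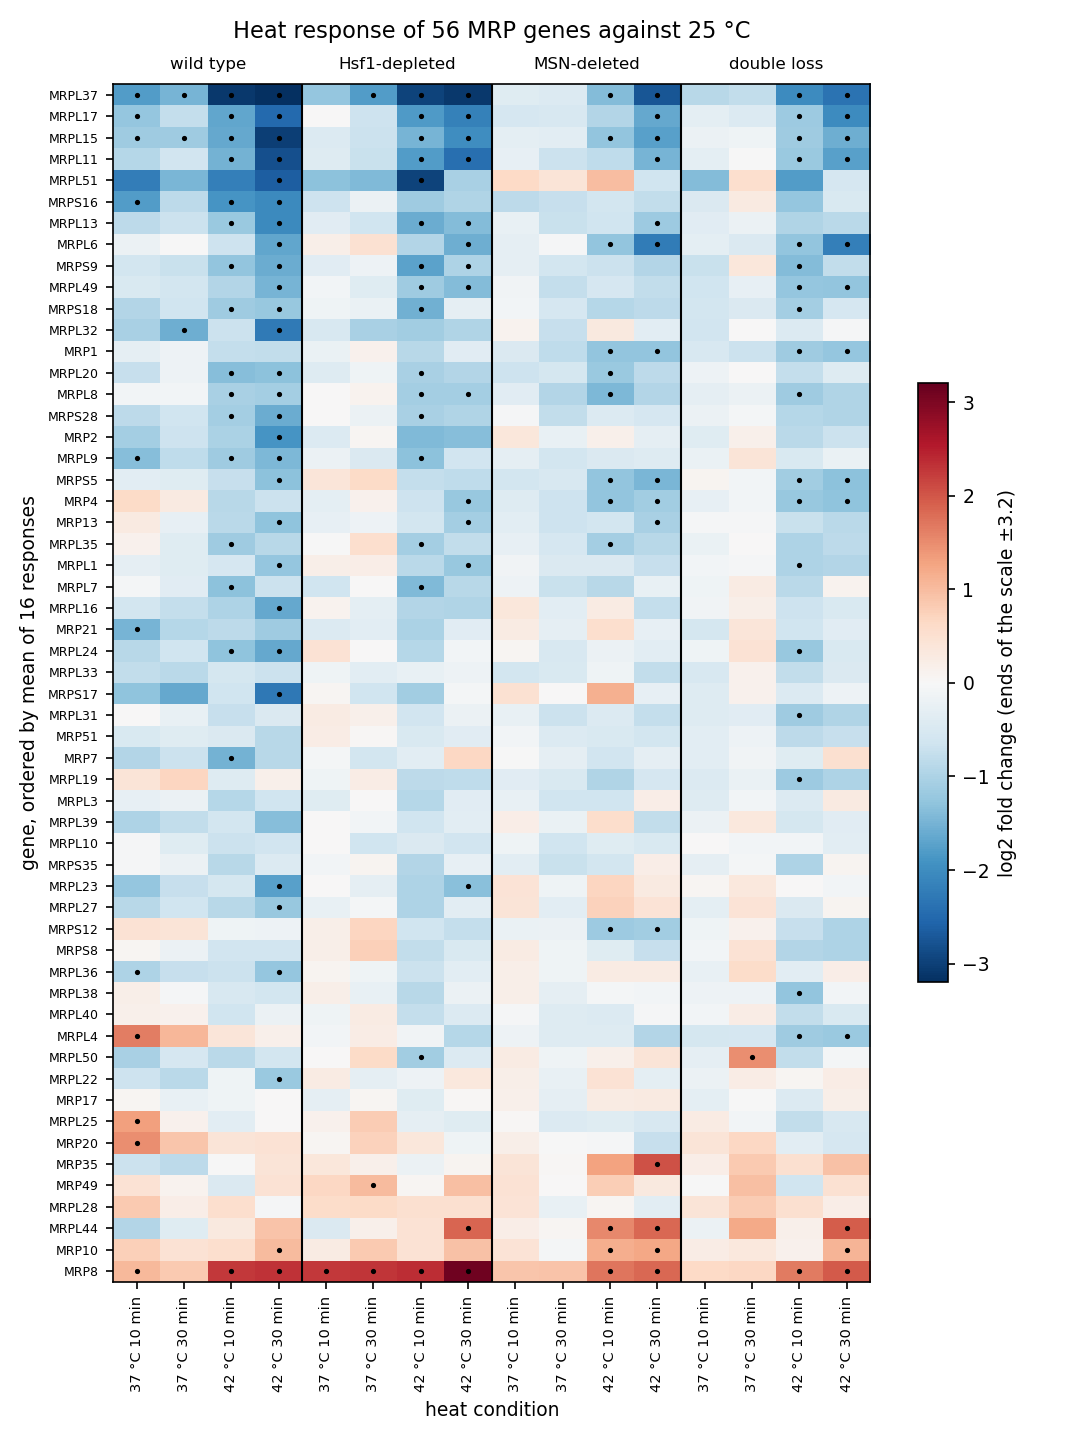
Log2 fold change against 25 °C of 56 MRP genes (rows, ordered by the mean of the 16 responses) in 4 strain states and 4 heat conditions (columns); a dot marks a call at adjusted p under 0.05 and a size of at least 1. Dots in blue cells gather in the 42 °C columns, with 27 falls in the wild type at 30 min, and MRP8 in the bottom row is red throughout.

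At 37 °C few members passed the test. In the wild type at 10 min 7 fell and 4 rose, against 22.2% and 21% of all genes, with a median of -0.54. At 30 min 3 fell and 0 rose, against 13.1% and 14.4%, with a median of -0.40. Under Hsf1 depletion 0 fell and 1 rose at 10 min (15.2% and 16.1% of all genes), and 1 fell and 2 rose at 30 min (25% and 22.9%). In the double loss 0 fell and 1 rose at 30 min (20.9% and 16.9%), and none was called at 10 min (8.55% and 4.68%). Under MSN deletion none was called at 10 min (13.2% and 8.02%) or at 30 min (7.87% in each direction). The members' medians there were -0.09 and -0.44, and the second was near the -0.45 of that state after 10 min at 42 °C. In the 3 comparisons with no call, edgeR gave 5, 16 and 1 members at an unadjusted p under 0.05 for MSN deletion at 10 and 30 min and the double loss at 10 min, and DESeq2 called 0 in each. The wild-type count of 11 at 10 min was 5 without replicate 3 at 37 °C or without replicate 3 at 25 °C, and 21 without replicate 2 at 37 °C. The wild-type count of 3 at 30 min was 0 without replicate 3 at 25 °C or without replicate 1 or 3 at 37 °C. The Hsf1-depleted count of 3 at 30 min was 1 without replicate 2 and 6 without replicate 3 at 25 °C.

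The 2 ribosomes of the cell differed widely in size of response. For 136 tested cytosolic ribosomal protein genes the median log2 fold change in the wild type was -2.13, -1.01, -1.45 and -5.71 at 37 °C for 10 and 30 min and 42 °C for 10 and 30 min. For the 55 annotated members it was -0.59, -0.40, -0.76 and -1.13. The contrast was widest under Hsf1 depletion at 37 °C for 30 min. There 134 of 136 cytosolic genes fell with a median of -4.81, while 1 of 55 members fell and the members' median was 0.00. Cytosolic ribosome biogenesis genes had medians of -5.13 in that comparison and of -4.88 in the wild type at 37 °C for 10 min. The other 24 mitoribosomal proteins had medians of -0.08, -0.24, -0.55 and -0.64 in the wild type and were closer to the members than to the cytosolic genes. Subunits of oxidative phosphorylation, the partners of the proteins that mitochondrial ribosomes make, had medians of 0.75, -0.78, 0.34 and -0.14. Of these 38 genes, 14 rose and 0 fell in the wild type at 37 °C for 10 min, and 2 rose and 15 fell at 30 min, beside the all-gene shares given above.

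**Figure D4:**
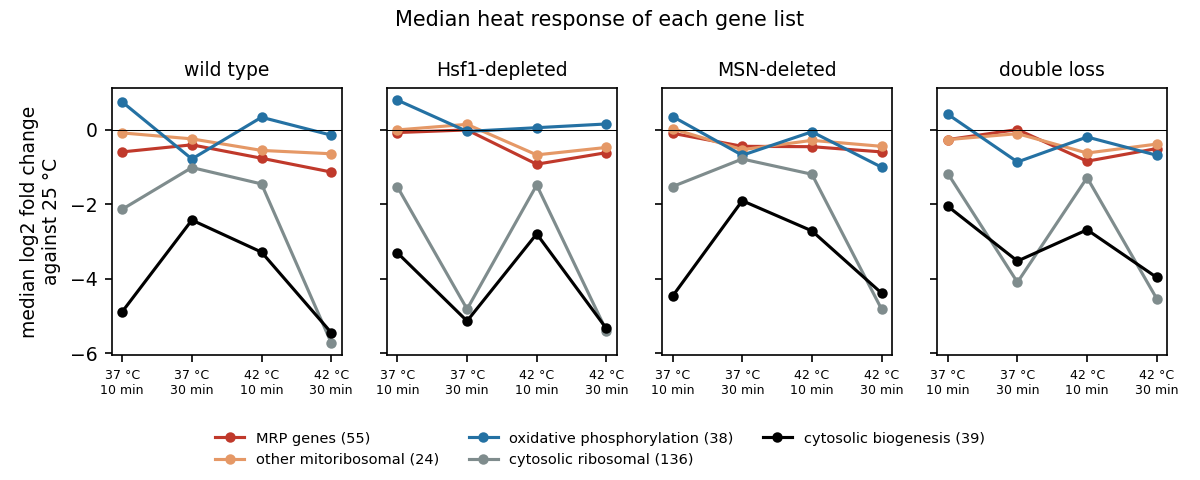
Median log2 fold change against 25 °C of 5 gene lists (colours, number of genes in brackets) in 4 heat conditions on the horizontal axis, 1 panel per strain state. The cytosolic lists reach medians between -4.38 and -5.71 at 42 °C for 30 min in wild-type, Hsf1-depleted and MSN-deleted cells and for double loss -4.53 and -3.96, whereas the MRP medians stay between -1.13 and 0.01 everywhere.

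In the wild type at 42 °C for 30 min subunit separated the members little. The 38 large-subunit genes had a median of -1.14 with 19 called down, and the 17 small-subunit genes a median of -1.13 with 8 down. The 37 genes with a bacterial counterpart had a median of -1.2 and the 18 specific to mitochondria one of -0.84. In the same comparison the Spearman correlation of response with length across the 56 genes was -0.08. It was -0.38, -0.46, -0.47 and -0.25 in the MSN-deleted state at 37 °C for 10 and 30 min and 42 °C for 10 and 30 min. At 42 °C for 10 min in that state the 28 shorter genes had a median of 0.10 and the 28 longer genes one of -0.59, and the part of length in the members' median there was not tested. These genes share libraries and are not replicates. Members with TGTAAATA and with TGTATATA had medians of -1.17 and -0.70 in the wild type at 42 °C for 30 min. At 37 °C in that state the order was the other way, with -0.63 and -0.69 at 10 min and -0.40 and -0.64 at 30 min. In the other responses members with TGTAAATA had the lower median. At 42 °C for 10 min the medians were -0.91 and -0.86 under Hsf1 depletion and -0.54 and 0.17 under MSN deletion. In the wild type at 42 °C for 30 min the 770 other genes with a Puf3 motif had a median of -0.39 and the 4804 tested genes without one -0.11. After 10 min at 42 °C the medians for members, other motif genes and genes without the motif were -0.76, -0.27 and -0.04 in the wild type, -0.92, -0.28 and -0.03 under Hsf1 depletion, -0.45, -0.11 and 0.06 under MSN deletion, and -0.84, -0.34 and -0.06 in the double loss. This order did not hold throughout at 37 °C. After 10 min there they were, by state in the same order, -0.59, -0.06 and -0.05, then -0.07, 0.07 and -0.01, then -0.09, 0.01 and 0.03, then -0.26, -0.08 and -0.04. After 30 min they were -0.40, -0.06 and -0.02, then -0.00, 0.11 and -0.05, then -0.44, -0.11 and 0.03, then 0.01, 0.12 and 0.02.

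Of the members, 46 were called in at least 1 of the 16 heat responses, 39 down and 9 up, whereas 87.5% of all tested genes were called in at least 1, 48.7% down and 50% up. A call in some response was thus no more common among members than among all genes, a fall was more common and a rise less so. MRPL4 and MRPL50 were called in both directions. The 10 never called were MRP17, MRP51, MRPL3, MRPL10, MRPL28, MRPL33, MRPL39, MRPL40, MRPS8 and MRPS35. MRP51, the protein annotated as bS1m and known to act on the leaders of mitochondrial mRNAs, had log2 fold changes between -0.90 and 0.24. After 10 min at 42 °C 3 members fell in all 4 states, MRPL37, MRPL15 and MRPL8. After 30 min 5 did so, MRPL37, MRPL15, MRPL11, MRPL17 and MRPL6. Over all genes 8.29% and 16.5% fell in all 4 states at these times, larger shares than among the members.

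MRPL11, the uL10m protein to which the factor-binding stalk is anchored, gave the clearest fall. Its CPM in the wild type was 84.0, 84.3 and 131 at 25 °C, 39.1, 33.5 and 32.6 at 42 °C for 10 min, and 15.5, 10.7 and 16.3 at 42 °C for 30 min. The 3 groups did not overlap and the level was lower at each step. The log2 fold change was -1.51 ± 0.30 (SE) and then -2.82 ± 0.32, with an adjusted p of 9.6e-11 by edgeR at 30 min. Under Hsf1 depletion the CPM was 49.02, 117 and 117 at 25 °C and 22.4, 17 and 13.7 at 42 °C for 30 min, a log2 fold change of -2.42 ± 0.31. Under MSN deletion it was 109, 94.2 and 103 at 25 °C and 36.2, 30.2 and 42.4 at 42 °C for 30 min, a change of -1.49 ± 0.30. The double loss had 73.9, 154 and 103 at 25 °C and 35.9, 30.7 and 33.4 at 42 °C for 30 min, a change of -1.73 ± 0.30. In every state the 42 °C values at 30 min lay below all 25 °C values.

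MRPL15 (mL57) and MRPL17 (mL46) also fell in every state after 30 min at 42 °C. MRPL15 went from 33.9, 42.2 and 72.7 CPM at 25 °C to 7.12, 5.77 and 5.50 CPM at 42 °C for 30 min in the wild type, a log2 fold change of -3.02 ± 0.48 (SE). MRPL17 went from 40.3, 33.2 and 69.8 CPM to 7.12, 10.7 and 7.41 CPM, a change of -2.50 ± 0.45. Neither gene's groups overlapped, and for both the highest 25 °C library was replicate 3. At 42 °C for 30 min MRPL15 changed by -2.0, -1.75 and -1.57 and MRPL17 by -2.16, -1.64 and -2.01 in the Hsf1-depleted, MSN-deleted and double-loss states. MRPL37 (mL54) had the lowest mean over the 16 responses, -1.89, but few reads. Its wild-type CPM was 6.61, 7.06 and 18.4 at 25 °C and 0.245, 0.824 and 1.2 at 42 °C for 30 min, with the lowest value below the limit set by a count of 3.

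MRPL6, the uL6m protein of the large subunit, fell after 30 min at 42 °C in every state and was not called at 37 °C in any. In the MSN-deleted state its CPM was 19.6, 20.2 and 20.99 at 25 °C, 20.8, 19.5 and 18.5 at 37 °C for 30 min, and 4.12, 4.91 and 3.85 at 42 °C for 30 min. The first 2 groups overlapped and the third lay well below them. The log2 fold change was -2.23 ± 0.30 (SE) there, -2.20 ± 0.29 in the double loss, -1.66 ± 0.29 in the wild type and -1.56 ± 0.29 under Hsf1 depletion. Of the small subunit, MRP1 (mS43) fell by 1.27 ± 0.17 on the log2 scale at both times at 42 °C in the MSN-deleted state and had changes of -0.76 and -0.80 in the wild type, where it was not called.

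Rises were few, and MRP8 gave the most of them. MRP8 (chromosome XI, 178515 to 179174 in R64) is described by its annotation as a hypothetical protein whose transcription is induced by cell wall stress. It was called up in 11 of 16 heat responses. In the wild type its CPM was 33.6, 27.1 and 40.6 at 25 °C, 186, 141 and 162 at 42 °C for 10 min, and 153, 179 and 167 at 42 °C for 30 min. The heated libraries lay above all 25 °C libraries, and the log2 fold changes were 2.27 ± 0.38 and 2.30 ± 0.39 (SE). Under Hsf1 depletion it was 10.9, 28.6 and 27.2 CPM at 25 °C, 50.9, 154 and 119 at 37 °C for 10 min, and 244, 173 and 176 at 42 °C for 30 min. Those groups did not overlap, and the changes were 2.25 ± 0.39 and 3.12 ± 0.40. Without Msn2 and Msn4 its rise at 42 °C for 30 min was 1.84 ± 0.38, and in the double loss 1.97 ± 0.38. In those 2 states it was not called at 37 °C, where its changes ran from 0.63 to 0.90. It was not called in the wild type at 37 °C for 30 min either. No difference between its response in those 2 states and that of the wild type was called. The rise of 1.03 in the wild type at 37 °C for 10 min was 0.57 without replicate 2 at 37 °C and 0.97 without replicate 2 at 25 °C, in both cases below the threshold.

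MRP10, the mS37 protein of the small subunit, rose in the wild type, MSN-deleted and double-loss states at 42 °C for 30 min. Its CPM in the MSN-deleted state was 85.3, 66.3 and 66.4 at 25 °C, 178, 171 and 144 at 42 °C for 10 min, and 153, 161 and 197 at 42 °C for 30 min. No heated library overlapped those of 25 °C, and the changes were 1.17 ± 0.27 and 1.23 ± 0.27 (SE). In the wild type the change at 30 min was 1.01 ± 0.27, and 0.86 without replicate 1 at 42 °C, which ended the call. The double-loss change was 1.09 ± 0.27, and 0.95 without replicate 2 at 25 °C or 0.98 without replicate 3 at 42 °C, which also ended the call. MRPL44 (mL53), the single member with an intron, rose in the Hsf1-depleted, MSN-deleted and double-loss states at 42 °C for 30 min, by 1.86 ± 0.62, 1.84 ± 0.61 and 1.94 ± 0.59, from few reads. No difference between its response and that of the wild type was called in any of these states. Its double-loss level went from 3.36, 9.18 and 4.35 CPM to 31.6, 12.5 and 22.4 CPM, groups that did not overlap. MRP35 (bL35m) rose in the MSN-deleted state at 42 °C for 30 min, from 1.58, 2.50 and 4.00 CPM to 7.37, 12.3 and 13.99 CPM, a change of 2.04 ± 0.61.

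**Figure D5:**
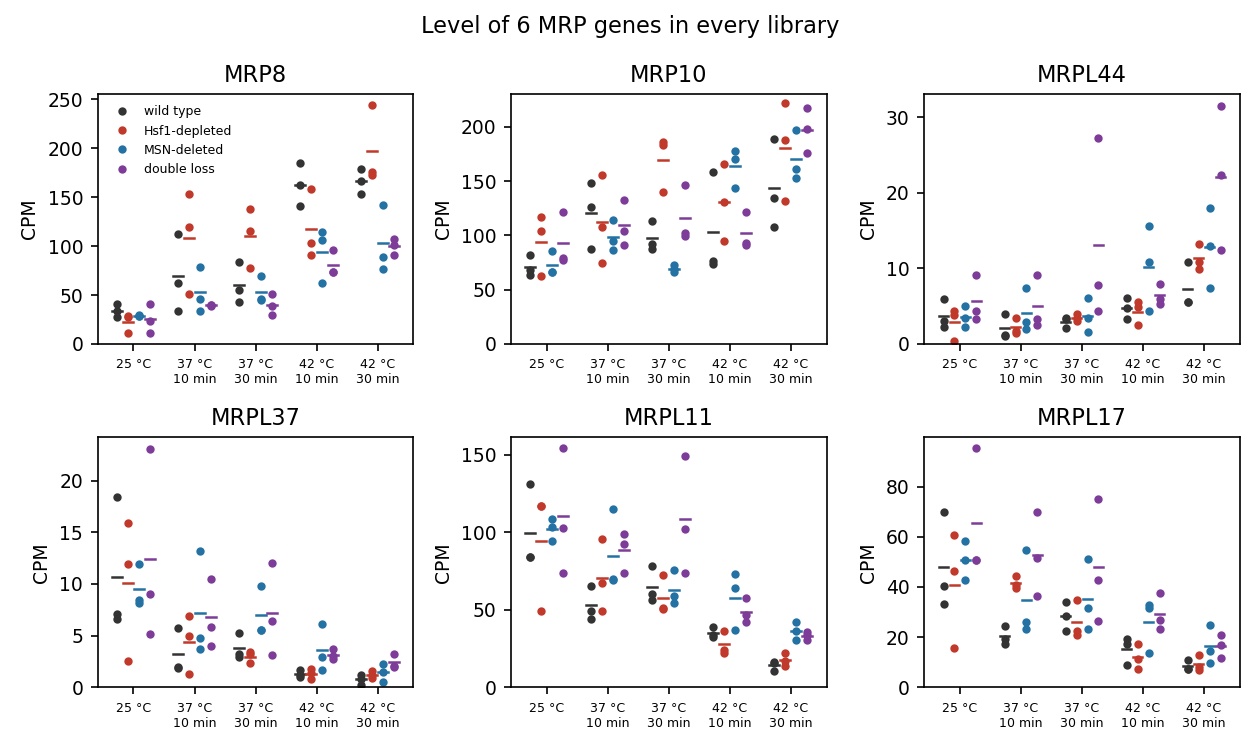
CPM of 6 MRP genes in every library (points) with group means (bars), by condition on the horizontal axis and strain state by colour; each vertical axis starts at 0. MRP8 climbs from 10.9 to 40.6 CPM at 25 °C to 76.9 to 244 CPM at 42 °C for 30 min, while MRPL11 drops to between 10.7 and 42.4 CPM.

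After 10 min at 37 °C a separate set rose in the wild type. MRPL4 went from 69.6, 119 and 97.8 CPM at 25 °C to 216, 315 and 356 CPM, a log2 fold change of 1.63 ± 0.47 (SE). MRP20, the uL23m protein that sits beside it at the tunnel exit, went from 63.5, 65.1 and 64.7 CPM to 122, 220 and 198 CPM, a change of 1.48 ± 0.40. MRPL25 (mL59) went from 34.1, 32.8 and 40.7 CPM to 47.2, 113 and 107 CPM, a change of 1.31 ± 0.33. In each the heated libraries lay above all those at 25 °C. MRPL4 had a change of -0.56 in the double loss in the same condition, and MRP20 and MRPL25 were 0.92 and 0.39 without the libraries that stood apart, a fit that leaves only replicate 1 at 37 °C, the lowest of the 3 libraries for both genes. Among members with an average log2 CPM of at least 3, the falls of largest size in this comparison were those of MRPS16 (bS16m) at -1.78 ± 0.68, MRP21 (bS21m) at -1.5 ± 0.59 and MRPL9 (uL3m) at -1.36 ± 0.47. Leaving out replicate 3 at 25 °C took these to -1.34, -0.82 and -1.0, and none of the 3 then passed the test.

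The strain states were compared by testing the difference between each heat response and the wild-type response, in 12 comparisons that all share the wild-type libraries. No member was called in 7 of them by edgeR as fitted here. With the library set as a term, 5 of these 7 gained calls: 3 and 1 for Hsf1 depletion at 37 °C for 10 min and 42 °C for 30 min, and 5, 1 and 2 for MSN deletion at 37 °C for 10 and 30 min and 42 °C for 10 min. At an unadjusted p under 0.05 these 7 held 9, 0 and 4 members for Hsf1 depletion at 37 °C for 10 min and at 42 °C for 10 and 30 min, and 8, 5 and 6 for MSN deletion at 37 °C for 10 and 30 min and at 42 °C for 10 min. The double loss at 42 °C for 10 min held 1. DESeq2 called 1, 0 and 0, then 2, 0 and 0, then 0 members. Few genes of any kind differed in some of them: over all genes 1.65%, 0.0659% and 0.659% were higher and 1.58%, 1.05% and 2.6% lower in the 3 comparisons for Hsf1 depletion. For MSN deletion 3.57%, 0.0329% and 2.92% were higher and 9.79%, 0.231% and 6.59% lower, and for the double loss 2.55% and 7.92%. Under MSN deletion at 42 °C for 30 min, where 12.7% of all genes were higher and 11% lower, 2 members were called. MRPL11 fell less than in the wild type, by a difference of 1.33 ± 0.42 (SE), and MRPL23 (uL13m) differed by 2.03 ± 0.76. Neither call remained without replicate 3 of the wild type at 25 °C, where the differences were 1.03 and 1.53, nor without replicate 2 of the wild type at 42 °C, where they were 1.16 and 1.93.

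In the double loss at 42 °C for 30 min, 5 members differed from the wild type, 4 with a higher response and 1 with a lower one (17.1% and 14.9% of all genes). They were MRPL32, the bL32m protein that is matured by a protease in the inner membrane (2.21 ± 0.84), MRP7 (bL27m, 1.39 ± 0.57), MRPL13 (mL50, 1.18 ± 0.47), MRPL11 (1.09 ± 0.42) and MRPL19 (-1.14 ± 0.37; log2 differences ± SE). MRPL32 read 19.7, 21.4 and 38.6 CPM at 25 °C and 4.66, 3.09 and 9.08 CPM at 42 °C in the wild type, and 13.7, 58.2 and 26.95 CPM against 40.6, 24.2 and 32.2 CPM in the double loss. The wild-type groups were apart and the double-loss groups overlapped. All 5 calls were lost without replicate 1 of the double loss at 25 °C or without its replicate 1 at 42 °C, while 18 members were called without its replicate 2 at 25 °C. Replicate 1 at 42 °C and replicate 2 at 25 °C were both of set 1, so leaving out 1 of them left the sets uneven. With the library set as a term, more members were called in this comparison than without it. In that 25 °C group 46 of 56 members lay above the mean in replicate 2 and 12 in replicate 1.

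The remaining calls were single genes. MRP8 rose more under Hsf1 depletion than in the wild type at 37 °C for 30 min, by 1.44 ± 0.53 (SE), where 7.89% of all genes were higher. MRPL4 differed by -2.20 ± 0.66 in the double loss at 37 °C for 10 min, where 13.2% of all genes were lower. MRPL50 (bL9m) differed by 2.00 ± 0.64 in the double loss at 37 °C for 30 min, where 9.64% of all genes were higher. MRPL50 read 13.2, 39.6 and 17.6 CPM at 25 °C and 42.2, 127 and 27.99 CPM at 37 °C for 30 min in the double loss. The groups overlapped, but libraries of the same number shared a library set here, and within each set the heated value was the higher. Without replicate 2 of the heated group the difference was 1.21 and not called. For MRP8 the value was 1.21 and not called without replicate 1 of the Hsf1-depleted cells at 25 °C. For MRPL4 it was -1.58 and not called without replicate 1 of the double loss at 25 °C.

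Going from 37 °C to 42 °C lowered more members than going from 10 to 30 min. At 30 min, 9 members were lower and 1 higher at 42 °C than at 37 °C in the wild type (22.3% and 21.5% of all genes), 15 and 2 under Hsf1 depletion (13.9% and 18.7%), 4 and 3 under MSN deletion (20.5% and 21.4%), and 13 and 1 in the double loss (16.7% and 20.9%). At 10 min, 7 were lower and 1 higher in the wild type (6.62% and 15.4%), 15 and 0 under Hsf1 depletion (4.45% and 12.2%), 1 and 0 under MSN deletion (5.06% and 18.1%), and 3 and 1 in the double loss (3.86% and 13.1%). The Hsf1-depleted count at 10 min stood farthest above its background, and was 8 without replicate 2 of either group. Its lowest value was that of MRPL17, with CPM of 39.4, 44.4 and 40.9 at 37 °C and 11.3, 7.12 and 17.2 at 42 °C, groups that did not overlap, and a log2 difference of -1.81 ± 0.43 (SE). The single call under MSN deletion, MRPL8 at -1.05 ± 0.32, grew to between 5 and 7 calls when any 1 library was left out.

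Between 10 and 30 min at 42 °C, 4 members fell further in the wild type (16.3% of all genes), MRPL32, MRPL15, MRPL11 and MRPL6, and 1 to 3 did so when a library was left out, with 1 without replicate 2 at 30 min. In the double loss 4 rose over that time (10.2%), MRPL44, MRPL38, MRP49 and MRPS35, and under Hsf1 depletion 2 rose (9.97%), MRP7 and MRPS18, with 0 called without replicate 1 of either group. MRPS35 (mS45) rose by 1.07 ± 0.15 (SE) in the double loss. At 37 °C MRPL25 fell between 10 and 30 min in the wild type (8.47% of all genes) by 1.17 ± 0.33 on the log2 scale, and MRPL50 and MRPS9 (uS9m) rose in the double loss (11.4%), both without a call once replicate 2 at 30 min was left out. No member was called in Hsf1-depleted cells at 37 °C or in MSN-deleted cells at either temperature by edgeR as fitted here or by DESeq2, with 6, 5 and 8 members at an unadjusted p under 0.05. In MSN-deleted cells at 42 °C other edgeR fits did make calls, 2 when the library set was a term, 1 under scaling to library totals and 8 without the libraries that stood apart.

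Transcripts of some regulators of mitochondrial or cytosolic ribosomal protein genes also changed, beside the all-gene shares given above. Their part in the changes of the members was not tested. PUF3 rose in the wild type at 37 °C for 10 min, by 1.53 ± 0.49 (SE), and at 42 °C it had changes of 0.14 and 0.41 in that state. HAP4, the activator subunit that drives respiratory genes, rose by 3.46 ± 0.38 in the wild type at 42 °C for 10 min and fell by 1.36 ± 0.35 in the MSN-deleted state at 42 °C for 30 min. HAP1, the haem-responsive activator, rose in all 4 states at 42 °C, by 2.49 to 2.91. SFP1, an activator of cytosolic ribosomal protein genes, rose by 1.66 ± 0.38 in the wild type at 37 °C for 10 min.

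The authors' deposited table of the same 16 heat responses gave close values. At the same thresholds it held 28 falls and 2 rises among the members for the wild type at 42 °C for 30 min, and the authors' deposited table had a members' median log2 fold change of -1.02 there. Its member counts differed from those above by at most 2 in either direction in each of the 16 responses.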

How the data were processed

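Poly(A) RNA libraries were sequenced as single reads, per the labels' protocols, and the authors deposited whole-number read counts per feature for each library, made with featureCounts 2.0.0 on R64 after bcl2fastq 1.8.4, per the submitters' processing notes. A deposited table of the authors' own comparisons holds log2 fold changes and FDR values from DESeq2 1.28.1, per the same notes; it was used only beside the counts. Whether counting used strand is not given in the sources used here.

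From the counts, edgeR 4.0.16 (R 4.3.3, limma 3.58.1) tested 6070 features that passed filterByExpr in 1 quasi-likelihood fit over 60 libraries, with TMM scaling and 1 mean per group; the common biological coefficient of variation was 0.276. Benjamini-Hochberg adjustment ran over all tested features in each of 48 comparisons, and a feature was called where the adjusted p lay under 0.05 and the log2 fold change reached 1 in either direction. Alternatives were DESeq2 1.42.0, its size factors, library totals, no filter, the replicate block, the library set (named in the deposited tables) as a term, leaving out the libraries that stood apart, and leaving out each library. The code was tested on simulated data. Motifs were searched in the RefSeq R64 genome with Python 3.11.15.

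Genes named with values were, per comparison, up to 8 called rises and 8 called falls of largest size with an average log2 CPM of at least 3, up to 5 called differences, calls against the main direction, the 4 highest and 4 lowest means over 16 heat responses, MRP8, MRP51 and members that overlap another gene; of these the text gives those its results turn on. The members and lists were chosen with earlier results of these data known.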

Additional observations from a re-analysis of the deposited data

Results flagged for a closer look

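A heat response differed from that of the wild type, by the test of the difference itself (edgeR, adjusted p under 0.05, log2 difference of at least 1 in size), for 10 pairs of a member and a condition. Under Hsf1 depletion at 37 °C for 30 min this was MRP8 (1.44). Under MSN deletion at 42 °C for 30 min it was MRPL11 (1.33) and MRPL23 (2.03). In the double loss it was MRPL4 at 37 °C for 10 min (-2.20) and MRPL50 at 37 °C for 30 min (2.00). In the same state at 42 °C for 30 min it was MRPL11 (1.09), MRPL19 (-1.14), MRP7 (1.39), MRPL13 (1.18) and MRPL32 (2.21). None of the 10 calls was kept in every fit that left out 1 library, and 4 were kept in every other setting. MRPL19 had a difference of -0.06 when libraries were scaled to their totals alone.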

How the results depend on the processing

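Values here are numbers of called members, rises and falls together, in results whose count moved by over 1.5 times or turned its main direction. The cause was not tested. Scaled to library totals alone, the counts for heat responses were wild type 17 (37 °C 10 min), 0 (37 °C 30 min), 30 (42 °C 10 min), double loss 4 (37 °C 30 min), 3 (42 °C 10 min), 7 (42 °C 30 min). The differences from the wild-type response counts were then Hsf1-depleted 0 (37 °C 30 min), 3 (42 °C 30 min), MSN-deleted 4 (42 °C 30 min), double loss 2 (37 °C 30 min), 2 (42 °C 10 min), 23 (42 °C 30 min). The 30 against 10 min counts were then wild type 0 (37 °C), 2 (42 °C), MSN-deleted 1 (42 °C), double loss 1 (37 °C). The 42 against 37 °C counts were then wild type 18 (30 min), Hsf1-depleted 8 (30 min), MSN-deleted 4 (10 min), double loss 2 (10 min). With the library set as a term, the counts for heat responses were wild type 5 (37 °C 30 min), Hsf1-depleted 2 (37 °C 10 min), double loss 2 (37 °C 30 min). The differences from the wild-type response counts were then Hsf1-depleted 3 (37 °C 10 min), 2 (37 °C 30 min), 1 (42 °C 30 min), MSN-deleted 5 (37 °C 10 min), 1 (37 °C 30 min), 2 (42 °C 10 min), 5 (42 °C 30 min), double loss 2 (37 °C 10 min), 4 (37 °C 30 min), 15 (42 °C 30 min). The 30 against 10 min counts were then MSN-deleted 2 (42 °C). The 42 against 37 °C counts were then MSN-deleted 2 (10 min). Without the 9 libraries that stood apart, the counts for heat responses were wild type 5 (37 °C 30 min), Hsf1-depleted 4 (37 °C 30 min), 26 (42 °C 10 min), double loss 0 (37 °C 30 min), 11 (42 °C 10 min). The differences from the wild-type response counts were then MSN-deleted 10 (42 °C 10 min), 7 (42 °C 30 min), double loss 0 (37 °C 10 min), 2 (37 °C 30 min), 14 (42 °C 30 min). The 30 against 10 min counts were then wild type 1 (37 °C), MSN-deleted 8 (42 °C), double loss 1 (37 °C). The 42 against 37 °C counts were then wild type 1 (10 min), MSN-deleted 5 (10 min), double loss 9 (30 min). With no filter on low counts, the counts for heat responses were MSN-deleted 1 (37 °C 10 min), double loss 2 (37 °C 30 min). The differences from the wild-type response counts were then Hsf1-depleted 2 (37 °C 30 min), double loss 2 (42 °C 30 min). The 30 against 10 min counts were then wild type 2 (42 °C), Hsf1-depleted 4 (42 °C), double loss 4 (37 °C), 7 (42 °C). The 42 against 37 °C counts were then MSN-deleted 5 (10 min). By DESeq2, the counts for differences from the wild-type response were Hsf1-depleted 1 (37 °C 10 min), 3 (37 °C 30 min), MSN-deleted 2 (37 °C 10 min), double loss 2 (37 °C 30 min). The 30 against 10 min counts were then Hsf1-depleted 4 (42 °C), double loss 4 (37 °C), 7 (42 °C). The 42 against 37 °C counts were then MSN-deleted 4 (10 min), 9 (30 min). With DESeq2's size factors in edgeR, the counts for differences from the wild-type response were Hsf1-depleted 3 (37 °C 30 min). The 30 against 10 min counts were then Hsf1-depleted 4 (42 °C), double loss 4 (37 °C), 7 (42 °C). The 42 against 37 °C counts were then MSN-deleted 3 (10 min), 9 (30 min).

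Leaving out 1 library at a time, the counts for heat responses ran over wild type 5 to 21 (37 °C 10 min), 0 to 3 (37 °C 30 min), 10 to 19 (42 °C 10 min), 19 to 28 (42 °C 30 min), Hsf1-depleted 1 to 2 (37 °C 10 min), 1 to 6 (37 °C 30 min), 11 to 30 (42 °C 10 min), MSN-deleted 0 to 1 (37 °C 10 min), 0 to 1 (37 °C 30 min), double loss 0 to 1 (37 °C 10 min), 0 to 7 (37 °C 30 min), 12 to 26 (42 °C 10 min). Leaving out 1 library at a time, the counts for differences from the wild-type response ran over Hsf1-depleted 0 to 3 (37 °C 10 min), 0 to 3 (37 °C 30 min), MSN-deleted 0 to 4 (37 °C 10 min), 0 to 1 (42 °C 10 min), 0 to 5 (42 °C 30 min), double loss 0 to 4 (37 °C 10 min), 0 to 17 (37 °C 30 min), 0 to 3 (42 °C 10 min), 0 to 18 (42 °C 30 min). Leaving out 1 library at a time, the counts for 30 against 10 min ran over wild type 1 to 3 (37 °C), 1 to 3 (42 °C), Hsf1-depleted 0 to 2 (37 °C), 0 to 3 (42 °C), MSN-deleted 0 to 1 (37 °C), 0 to 2 (42 °C), double loss 0 to 5 (37 °C), 3 to 7 (42 °C). Leaving out 1 library at a time, the counts for 42 against 37 °C ran over wild type 5 to 12 (10 min), Hsf1-depleted 8 to 21 (10 min), MSN-deleted 5 to 7 (10 min), 6 to 10 (30 min), double loss 4 to 9 (10 min).

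Leaving out the libraries that stood apart left 1 library in the wild type at 37 °C for 10 min, in Hsf1-depleted cells and the double loss at 25 °C, and in the double loss at 37 °C for 30 min. Every count above that uses one of these groups rests there on a lone library, assumed to vary like the other groups, and says little about direction. In such fits the Hsf1-depleted count at 37 °C for 30 min was 1 rise and 3 falls, the wild-type change at 37 °C from 10 to 30 min was 1 rise in place of 1 fall, and 42 against 37 °C at 10 min in the wild type was 1 rise in place of 7 falls and 1 rise. By DESeq2 and with its size factors, 42 against 37 °C at 30 min in the MSN-deleted state had 6 rises and 3 falls. MRPL24 in the double loss at 42 °C for 10 min had a log2 fold change of -1.22, and 0.21 against the lone 25 °C library left. The replicate numbers did not pair the samples: same-numbered deviations correlated at -0.67 to 0.86 over 60 pairs, and all 3 pairs exceeded 0.1 in 1 of 20 comparisons. The library sets, in contrast, did form blocks across the groups of their states. The edgeR fit used here had no term for these blocks, and the counts that moved with such a term are given above. Leaving out 1 library leaves the blocks uneven in that fit. With the replicate block, the Hsf1-depleted difference at 37 °C for 30 min held 2 members instead of 1, and the other 47 counts stayed within 1.5 times. Of 157 called pairs of member and heat response, 86 were kept in every fit that left out 1 library, 103 in every other setting and 71 in all. Depth limits MRPL37, MRPL24, MRPL51, MRPS17, MRP2, MRPL44 and MRP35, which had an average log2 CPM under 3.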
